A study of Caenorhabditis elegans with 2 samples.

Results

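Genes for the mitochondrial ribosome and for import of proteins into mitochondria were examined in a chromatin immunoprecipitation and sequencing (ChIP-seq) experiment on LIN-13 in embryos of the nematode Caenorhabditis elegans. The members were chosen by symbol: 84 of 19973 protein-coding genes on the 6 nuclear chromosomes have names starting with mrpl-, mrps-, timm-, tomm-, tin- or ddp- (WBcel235 annotation). This family was put forward with its peak counts already known, so counts and ranks of its peaks are given as a description, with no test. The experiment had 1 group of 2 biological replicates, both whole animals of mixed sex and mixed embryonic stage with unknown age. Both came from strain OP51, which has the unc-119(ed3) III mutation and the transgene wgIs51 for eGFP-tagged LIN-13. The labels name lin-13 in the antibody field and do not give the promoter of the transgene. They do not make clear whether LIN-13 itself or its eGFP tag was recognised, so the peaks may come from the transgene product alone or with the worm's own LIN-13. The control experiment they mention is not analysed here. Whole embryos hold many cell types, so a peak cannot be placed in a cell type.

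Mitochondria keep a small genome, and the ribosome that translates its messages is built from proteins that are encoded in the nucleus, made in the cytosol and imported. The mrpl- genes encode proteins of the large subunit of this ribosome and the mrps- genes those of the small subunit. Precursor proteins cross the outer membrane through the TOM complex (tomm- genes) and enter or cross the inner membrane through TIM complexes (timm- genes). Small Tim chaperones (ddp-1 and the tin- genes other than tin-44) guide hydrophobic precursors between the membranes. LIN-13, a protein with zinc fingers, belongs to the synMuv B class of chromatin regulators, known in worms for repression of vulval and germline genes.

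LIN-13 peaks lay close upstream of genes for both machines. The sequences under the strongest summits are shown because the same short stretches of letters recur in some of them. The 10 best ranked peaks on chromosomes II to V are printed with 50 bp to each side of the summit, 5′ to 3′ on the strand of the named gene (ce11, RefSeq sequence of WBcel235). Capitals mark GCAAACA or GCGCAC on either strand, both picked after these sequences had been read.
ddp-1 (chrIII:1859704-1859804, plus strand): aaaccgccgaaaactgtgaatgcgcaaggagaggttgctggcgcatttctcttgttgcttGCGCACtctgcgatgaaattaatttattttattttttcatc
tomm-20 (chrV:12343708-12343808, minus strand): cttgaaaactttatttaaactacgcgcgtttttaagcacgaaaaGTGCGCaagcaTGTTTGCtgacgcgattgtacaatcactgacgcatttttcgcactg
mrpl-28 (chrII:156047-156147, minus strand): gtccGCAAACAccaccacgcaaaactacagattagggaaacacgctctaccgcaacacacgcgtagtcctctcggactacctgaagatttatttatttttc
mrps-7 (chrIV:14767859-14767959, minus strand): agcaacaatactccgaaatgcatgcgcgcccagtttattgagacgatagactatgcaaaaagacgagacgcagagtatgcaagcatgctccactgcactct
mrpl-49 (chrV:12728412-12728512, plus strand): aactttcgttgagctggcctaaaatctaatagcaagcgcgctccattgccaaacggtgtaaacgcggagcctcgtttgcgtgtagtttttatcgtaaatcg
mrpl-12 (chrIII:10707188-10707288, plus strand): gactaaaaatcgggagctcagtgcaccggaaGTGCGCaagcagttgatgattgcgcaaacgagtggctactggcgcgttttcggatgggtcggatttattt
mrpl-45 (chrIII:1202310-1202410, minus strand): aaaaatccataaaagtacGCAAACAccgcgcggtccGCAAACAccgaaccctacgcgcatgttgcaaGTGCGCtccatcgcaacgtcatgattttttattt
mrpl-55 (chrIV:443821-443921, plus strand): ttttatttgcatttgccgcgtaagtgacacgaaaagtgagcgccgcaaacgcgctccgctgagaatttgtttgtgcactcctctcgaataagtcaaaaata
timm-17B.1 (chrIV:4745598-4745698, minus strand): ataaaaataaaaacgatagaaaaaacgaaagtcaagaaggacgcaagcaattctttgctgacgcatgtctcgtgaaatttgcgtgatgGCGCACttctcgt
mrpl-37 (chrII:13575644-13575744, minus strand): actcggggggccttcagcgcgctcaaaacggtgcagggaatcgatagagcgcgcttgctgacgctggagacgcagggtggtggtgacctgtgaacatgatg

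Of the 84 genes, 22 (26.2%) had a summit of the authors' final peak set in a window from 1000 bp upstream to 200 bp downstream around a transcription start site (TSS), against 8.15% of all 19973 protein-coding genes. The final set holds 1534 peaks and was cut by a threshold on the irreproducible discovery rate (IDR), which scores agreement in rank between replicates. It equals the first 1534 regions by signal of the list pooled from both replicates, so a peak in it need not recur in both. A summit within 100 bp was found in both replicate lists for 1373 of the 1534 (89.5%). Import genes had a peak at 6 of 14 (42.9%) and mitochondrial ribosome genes at 16 of 70 (22.9%), with 11 of 41 in the large subunit and 5 of 29 in the small subunit. The 22 peaks had a median rank of 462 in the pooled list of both replicates, ranging from 13 to 1400, where 1 is the strongest. All 1534 IDR peaks have a median rank of 767.5. Of the 22 peaks, 3 (13.6%) were among the best 100 of the 1534 and 12 (54.5%) among the best 500 of the 1534. By the same window, a peak was found at 66 of 78 genes for proteins of the cytosolic ribosome (84.6%), with a median rank of 300. Respiratory chain genes with symbols starting nuo-, nduf-, cox-, ucr-, sdh or atp- had one at 21 of 41 (51.2%), with a median rank of 566. These differences in share were not tested.

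The strongest peaks of the family stood at import genes. The first was upstream of ddp-1 (WBGene00000941), which encodes a small Tim chaperone related to the human deafness-dystonia peptide. It lay on chromosome III at 1859652 to 1859837, with its summit 134 bp upstream of the TSS and a pooled signal of 208.1. It ranked 30 in replicate 1 and 10 in replicate 2, so it was among the strongest regions of each. The next was upstream of tomm-20 (WBGene00009092), a TOM receptor for targeting sequences, on chromosome V at 12343672 to 12343839. Its summit was 289 bp upstream, its pooled rank was 28 with a signal of 157.8, and its ranks were 14 in replicate 1 and 138 in replicate 2. Unlike ddp-1, tomm-20 stood higher in replicate 1.

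The genes timm-23 and timm-17B.1, which encode subunits of the presequence translocase of the inner membrane, each had a peak. The timm-23 (WBGene00008857) peak, at the gene for the channel subunit, was on chromosome I at 11578253 to 11578536, with its summit 246 bp upstream. Its pooled rank was 224 with a signal of 87.34, and it ranked 521 in replicate 1 and 186 in replicate 2. The timm-17B.1 (WBGene00017119) peak, on chromosome IV at 4745506 to 4745789, had its summit 156 bp upstream, with a pooled rank of 482 and a signal of 61.84. Its replicate ranks were 640 and 489, given here and from now on with replicate 1 before replicate 2. No list held a region in the window of timm-17B.2, the other gene of that name. Lower in the set came the small Tim genes tin-9.2 (WBGene00044083) and tin-9.1 (WBGene00006572), both on chromosome IV. The tin-9.2 peak, at 13098724 to 13099007, had a pooled rank of 1009 and a signal of 42.66, and it ranked 1241 in replicate 1 and 1327 in replicate 2. The tin-9.1 peak, at 7044777 to 7045060, had a pooled rank of 1252, a signal of 37.14 and ranks of 1931 and 1146.

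The remaining 8 import genes had no IDR peak. For tomm-40, the gene of the outer membrane channel, the pooled rank was 1543, the closest of all members outside the set. Its best region ranked 1244 in replicate 1 and 4187 in replicate 2. Pooled ranks were 6671 for tomm-22, 10539 for tin-13 and 22884 for tin-10, deep in lists of 30000 regions that reach into background. The gene tin-44, named for the TIM44 scaffold of the import motor, and the receptor gene tomm-70 had a region only in the list of replicate 1, at ranks 9932 and 13795. The small TOM subunit gene tomm-7 had none in any list.

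Among the 11 large subunit genes with a peak, mrpl-28 and mrpl-49 led with mrpl-12 and mrpl-45 close behind. The mrpl-28 (WBGene00020796) peak, on chromosome II at 156045 to 156151, had its summit 88 bp upstream, a pooled rank of 98 and a signal of 116.6. It ranked 288 in replicate 1 and 84 in replicate 2. The mrpl-49 (WBGene00011247) peak, on chromosome V at 12728320 to 12728603, had a pooled rank of 212, a signal of 88.64 and ranks of 158 and 348. The mrpl-12 (WBGene00012361) peak, on chromosome III at 10707209 to 10707282, had a pooled rank of 220, a signal of 87.79 and ranks of 210 and 276. The mammalian MRPL12 protein is also known to bind mitochondrial RNA polymerase. The mrpl-45 (WBGene00022493) peak, on chromosome III at 1202313 to 1202417, had a pooled rank of 229, a signal of 86.94 and ranks of 656 and 164. All 4 ranked 656 or better in each replicate, and mrpl-49 and mrpl-12 stood higher in replicate 1 while mrpl-28 and mrpl-45 stood higher in replicate 2.

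The next 3 large subunit peaks had pooled ranks between 381 and 442 and stood higher in replicate 2. They were at mrpl-15 (WBGene00022373; chromosome I, 1435503 to 1435786; signal 68.74; ranks 606 and 277 in replicates 1 and 2), mrpl-55 (WBGene00022045; chromosome IV, 443729 to 444012; signal 67.87; ranks 642 and 305) and mrpl-17 (WBGene00021829; chromosome I, 3162481 to 3162764; signal 64.17; ranks 1066 and 343). The other 4 were weaker. The mrpl-37 (WBGene00013004) peak, on chromosome II at 13575552 to 13575835, had a pooled rank of 720, a signal of 50.98 and ranks of 345 and 1604. The mrpl-23 (WBGene00020348) peak, on chromosome I at 6212709 to 6212992, had a pooled rank of 713, a signal of 51.15 and ranks of 2451 and 434. Its summit was 966 bp upstream, in an exon of a noncoding gene and within 100 bp of the snoRNA gene T08B2.13. It also lay within the body of fars-1, a coding gene that ends 95 bp upstream of mrpl-23 on the same strand. These genes cannot be told apart from mrpl-23 as the one the peak belongs to. The mrpl-47 (WBGene00015092) peak, on chromosome I at 5244147 to 5244430, was the only summit downstream of its gene's TSS, by 6 bp. It had a pooled rank of 1128, a signal of 39.78 and ranks of 4849 and 720. The mrpl-40 (WBGene00018793) peak, on chromosome III at 87272 to 87555, had a pooled rank of 1400, the last inside the set, a signal of 34.83 and ranks of 2591 and 1600.

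The small subunit had 1 strong peak and 4 weaker ones. The strong one was at mrps-7 (WBGene00013324), on chromosome IV at 14767850 to 14767951 and 179 bp upstream of the TSS. It had a pooled rank of 121 and a signal of 108.2, and it ranked 136 in replicate 1 and 179 in replicate 2, the smallest difference in rank between replicates among the 4 with a region in each. The mrps-17 (WBGene00015487) peak, on chromosome III at 6431783 to 6432066, had a pooled rank of 802, a signal of 48.23 and ranks of 1510 and 1022. The mrps-28 (WBGene00012830) peak, on chromosome V at 19643995 to 19644278, had a pooled rank of 804, a signal of 48.2 and ranks of 553 and 1456. These are adjacent in the pooled order but opposite in which replicate ranked them higher. The mrps-16 (WBGene00018961) peak, on chromosome II at 5474020 to 5474303, had a pooled rank of 897 and a signal of 45.62. It ranked 388 in replicate 2, and replicate 1 had no summit within 100 bp of it. The mrps-35 (WBGene00012697) peak, on chromosome V at 18981031 to 18981314, had a pooled rank of 1333, a signal of 35.81 and ranks of 4162 and 805.

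**Figure D1:**
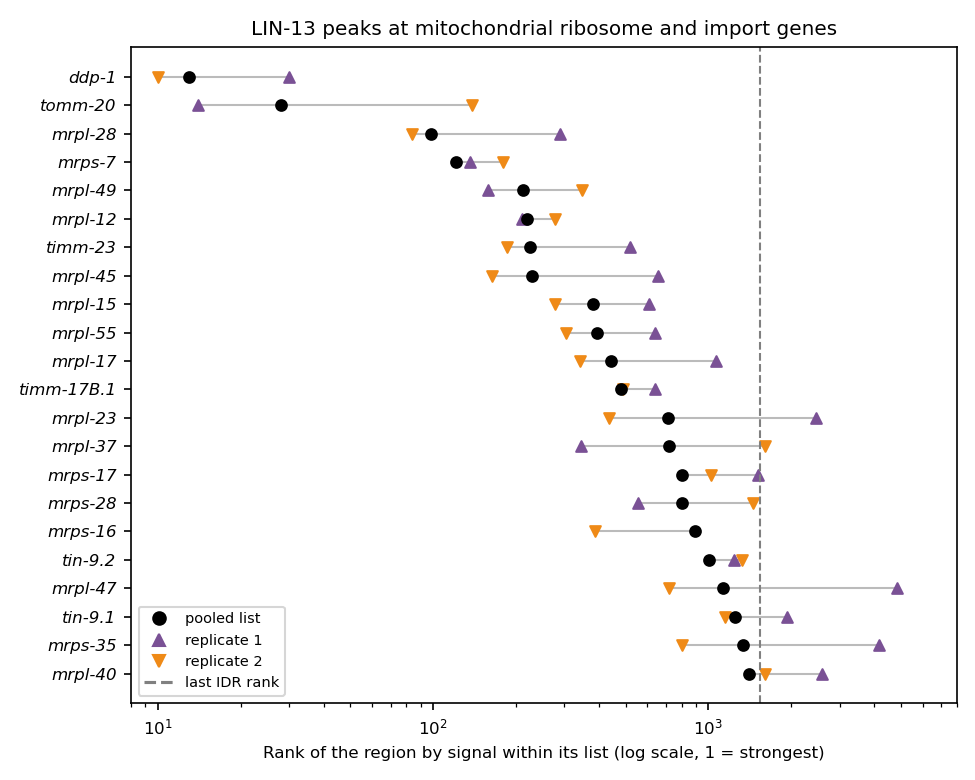
Rank of each of the 22 peaks by signal (x axis, log scale, 1 is the strongest) in the pooled list (circles) and in replicates 1 and 2 (triangles up and down), with the genes in pooled order down the page and the last IDR rank, 1534, as a dashed line. The peaks at ddp-1 and tomm-20 stand apart at the strong end, and replicates differ in rank at both ends of the order, with 14 in replicate 1 and 138 in replicate 2 at tomm-20, and 4849 in replicate 1 and 720 in replicate 2 at mrpl-47.

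The peaks of the family recurred between replicates at ranks that often differed. A region with its summit within 100 bp was found in both replicate lists for 21 of the 22 peaks (95.5%), mrps-16 being the exception, against 1373 of all 1534 IDR peaks (89.5%). For 15 of 22 peaks (68.2%) the matching region was among the first 1534 of both replicates, against 51.5% of all IDR peaks. Replicate 2 gave the better rank for 14 of the 21 matched peaks, and for 743 of 1373 matched peaks over the whole set. Counted by gene, 19 of the 84 had a summit in the window among the first 1534 regions of replicate 1 and 21 among those of replicate 2. All 21 of replicate 2 were among the 22 genes with an IDR peak, and so were 16 of the 19 of replicate 1. The other 3 were tomm-40, mrps-31 and mrpl-9, with ranks of 1244, 1307 and 1411 in replicate 1 and best ranks of 4187, 14079 and 10532 in replicate 2.

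Most summits lay close upstream of the member and in intergenic sequence. The median distance to the member's TSS was 174 bp (range 6 to 966 bp), where all 1628 protein-coding genes with an IDR summit had a median of 232 bp. Of the 22 summits, 21 were upstream, 15 were within 250 bp, and 19 were intergenic. The window reaches 1000 bp upstream but only 200 bp downstream, which by itself favours upstream summits. The matching shares over all coding genes with an IDR summit are not given here, so these counts describe the 22 peaks only. Among import genes, the tin-9.2 and tin-9.1 summits were 129 and 317 bp upstream. Among large subunit genes, distances upstream were 114 bp at mrpl-55, 145 bp at mrpl-40, 190 bp at mrpl-17, 352 bp at mrpl-45, 523 bp at mrpl-12 and 634 bp at mrpl-15. Among small subunit genes they were 102 bp at mrps-28, 127 bp at mrps-17 and 211 bp at mrps-16. The summits at mrpl-47 and mrps-35 were in annotated 5′ untranslated sequence. For mrps-35 this is not its own, since the summit lies upstream of mrps-35 and within the overlapping opposite-strand gene sws-1. Many annotated worm TSSs are sites of trans-splicing, downstream of where transcription begins.

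Many of these peaks were shared with a neighbour. In 13 of 22 cases (59.1%) the summit was also in the window of another protein-coding gene, and this was so for 479 of the 1154 IDR peaks in any coding window (41.5%). In 6 cases the neighbour's TSS was nearer. The mrpl-37 summit was 231 bp upstream of lin-38, a synMuv A gene, and 626 bp upstream of mrpl-37. The tin-9.2 summit was 74 bp from dli-1, which encodes a dynein light intermediate chain, and 129 bp from tin-9.2, and it was also in the window of the exosome gene exos-4.1. The mrps-35 summit was 23 bp from sws-1 and 133 bp from mrps-35. The mrpl-12, mrpl-45 and mrpl-40 summits were nearer to Y39A1A.22, Y119D3B.12 and F54C4.4, at 210, 186 and 33 bp. By contrast the mrpl-49 summit, 169 bp upstream, was nearer to the mitochondrial gene than to rpl-28, a cytosolic ribosomal protein gene 350 bp away on the opposite strand. The peaks at tomm-20, timm-17B.1, tin-9.1, mrpl-15, mrpl-28, mrpl-55, mrpl-47, mrpl-23 and mrps-16 were in no other coding window. The mrpl-23 summit nevertheless lay within the body of the coding gene fars-1. A region list cannot say which gene of a shared promoter a peak belongs to.

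**Figure D2:**
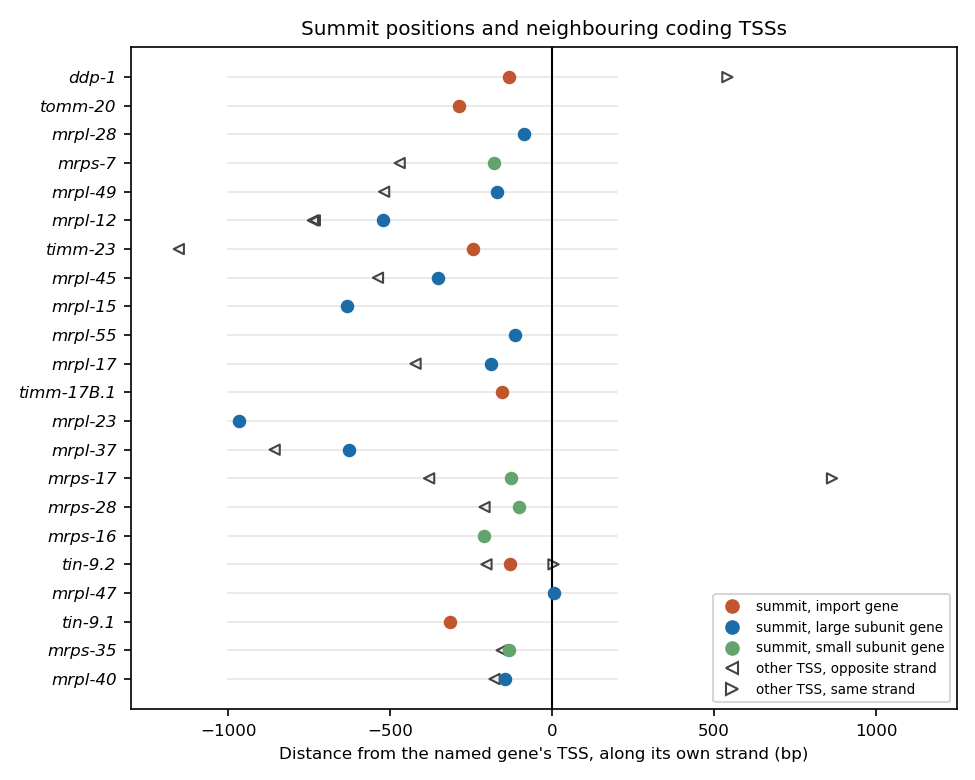
Position of each summit (filled circles, coloured by import, large subunit or small subunit gene) relative to the named gene's TSS at 0, in bp along that gene's strand, with the TSSs of other protein-coding genes whose window holds the summit as open triangles. Of the 22 summits 15 lie within 250 bp of the TSS, and most shared summits lie between a member and a gene on the opposite strand.

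Members that closely follow another gene on the same strand had few peaks in their own window, as did all protein-coding genes so placed. Many worm genes sit in operons, where several genes are transcribed from the promoter of the first. The annotation used here does not mark operons, so a close upstream gene on the same strand was taken as a rough sign, a criterion set after the peaks had been seen. A protein-coding gene ended within 200 bp upstream on the same strand for 23 of the 84 members (27.4%), against 10.8% of all protein-coding genes. Their gaps had a median of 104 bp and were at most 116 bp, and mrps-27 overlapped the gene before it. Of these 23 members, 1 (4.35%) had an IDR summit, mrpl-23, and the share was 3.80% for all protein-coding genes so placed. No list held a region in the window for 10 of the 23, and the share for all genes so placed is not given here. Members with a head-to-head neighbour within 1000 bp had a peak at 11 of 28 (39.3%), against 23.1% of all genes so placed, and the remaining members at 10 of 33 (30.3%), against 5.06%.

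For members behind a close gene, LIN-13 peaks were found at the start of the run of genes in 12 of 23 cases. Following such gaps upstream to the first gene, 12 of the 23 members (52.2%) had an IDR summit in the window of the first gene, and counting either window the share stayed at 12 of 23, against 25.6% of all protein-coding genes so placed. The 12 members trace to 11 first genes. The strongest was at nrde-2, a nuclear RNA interference gene, with its summit at -925 bp from the TSS and a pooled rank of 266. It precedes mrps-14, which had a region of its own only at rank 23520. Next were F29B9.11 before mrps-21 (rank 377), uev-1 before mrps-27 (rank 516) and atp-2, the ATP synthase beta subunit gene, at the start of the run that holds mrps-26 (rank 624). The others were W04B5.5 before mrpl-30 (741), vps-37 before mrpl-48 (867), W04D2.4 before mrps-11 (1348), the RNA polymerase subunit gene rpb-6 in the run of mrps-22 (1397), the phenylalanine tRNA synthetase gene fars-1 before mrpl-23 (1509) and F21D5.7 in the run of mrps-33 (1517). The gene natc-1 (rank 1243) starts the run that holds both mrps-2 and mrpl-4. The 11 members whose first gene had no IDR peak were mrpl-13, mrpl-21, mrpl-24, mrpl-42, mrpl-50, mrpl-53, mrps-5, mrps-18.C, mrps-30, tin-10 and tomm-7. Among them mrps-5 is known in worms for a longer lifespan and a mitochondrial stress response when it is knocked down. With the first gene's window included, 33 of the 84 genes (39.3%) had a peak, against 10.5% of all protein-coding genes counted the same way.

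**Figure D3:**
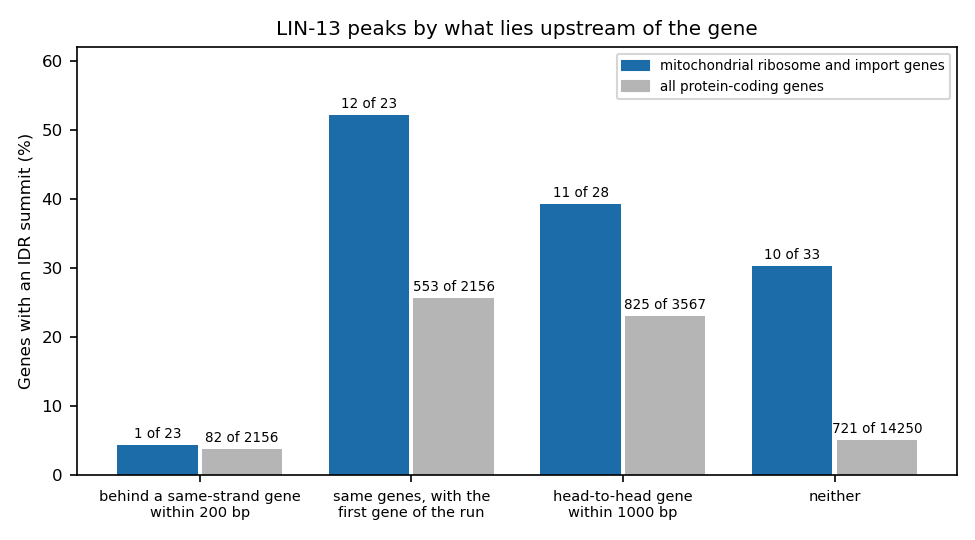
Share of genes with an IDR summit (y axis, percent, from 0) for mitochondrial ribosome and import genes (left bars) and all protein-coding genes (right bars), by what lies upstream of the gene, with the counts above the bars. Members behind a close same-strand gene had a peak at 1 of 23 by their own window and at 12 of 23 with the first gene of the run included.

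The letters around the summits recurred, as the printed sequences show. GCAAACA was within 100 bp of 7 of the 22 summits (31.8%) on either strand, against 14.5% of all IDR summits and 4.91% of 27480 lower-ranked pooled regions over 1000 bp from every IDR summit. The 7 were at tomm-20, mrpl-28, mrpl-45, mrps-16, mrps-17, mrps-28 and tin-9.2, and at all 7 it lay within 50 bp. The mrpl-45 sequence holds it at 2 places. GCGCAC was within 100 bp of 9 summits (40.9%), against 21.5% of all IDR summits and 5.18% of lower-ranked regions, and these included ddp-1, tomm-20, mrpl-12 and timm-17B.1. Either sequence was found at 13 of 22 (59.1%), against 33.9% and 9.78%. Both were picked after the sequences had been read, so their frequency is a description. The printed sequences of mrps-7, mrpl-49, mrpl-55 and mrpl-37 hold neither, and neither was within 100 bp of their summits.

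An E2F-like sequence and a GA repeat were also searched on both strands. E2F-like letters (TTCCCGC or else TTCGCGC, and also TTGCCGC or else TTGGCGC) were within 100 bp of 7 of 22 summits (31.8%), against 20.3% of all IDR summits and 10.8% of lower-ranked regions. These were at mrpl-28, mrpl-37, mrpl-47, mrpl-55, mrps-16, mrps-35 and tin-9.1. GAGAGAGA was found at 1 of 22 (4.55%), mrpl-15, against 8.67% of all IDR summits and 3.01% of lower-ranked regions. No motif was tested, and with 22 summits each adds 4.55 percentage points. Base composition was rich in G and C at the summit: the median within 25 bp was 53.9% for the 22 peaks, 52.9% for all IDR peaks and 41.2% for lower-ranked regions. Within 100 bp the medians were 37.8%, 44.8% and 40.3%. These motif shares are not matched for base composition.

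**Figure D4:**
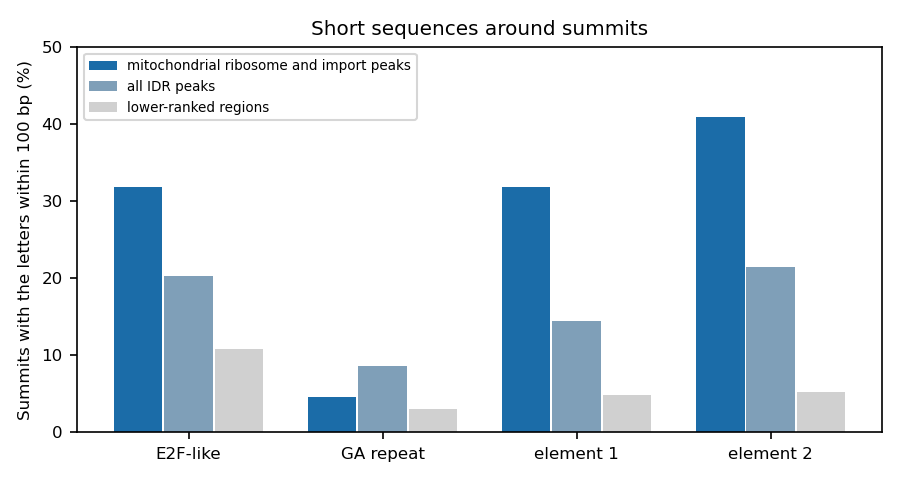
Share of summits (y axis, percent, from 0) with each sequence within 100 bp on either strand, for the 22 mitochondrial ribosome and import peaks, all 1534 IDR peaks and 27480 lower-ranked regions; element 1 is GCAAACA and element 2 is GCGCAC. Both elements and the E2F-like letters were most frequent at the 22 peaks, at 31.8%, 40.9% and 31.8%, and the GA repeat was at 4.55%. Elements 1 and 2 were picked after the sequences of these peaks had been read, so their higher frequency there is a description.

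The IDR threshold ran through a continuous series of members. The last 5 inside were tin-9.2, mrpl-47, tin-9.1, mrps-35 and mrpl-40, with pooled ranks of 1009, 1128, 1252, 1333 and 1400 and signals between 42.66 and 34.83. The first 5 outside were tomm-40, mrps-15, mrpl-34, mrps-23 and mrps-6, with ranks of 1543, 1691, 1924, 2329 and 2496 and signals between 32.66 and 23.85. In all, 39 members had a pooled region below the set, with a median rank of 5474. A pooled region of any rank was in the window of 61 of 84 members (72.6%), against 41.3% of all protein-coding genes. Both replicate lists held a region in the window for 49 of 84 (58.3%), against 26.2% of all protein-coding genes.

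The other members below the set were spread through the lists. Large subunit genes there were mrpl-44 (rank 2637), mrpl-18 (2836), mrpl-36 (3628), mrpl-38 (4301), mrpl-1 (4431), mrpl-4 (5474), mrpl-39 (5493), mrpl-35 (7797), mrpl-2 (10788), mrpl-9 (10792), mrpl-20 (12039), mrpl-16 (23361), mrpl-54 (24254), mrpl-19 (24607), mrpl-22 (25483) and mrpl-11 (26186). Small subunit genes were mrps-10 (2514), mrps-9 (2765), mrps-18C (2834), mrps-25 (3572), mrps-12 (4113), mrps-31 (4323), mrps-24 (4431), mrps-2 (4733), mrps-18B (5023), mrps-34 (6059), mrps-27 (15337), mrps-21 (19186), mrps-33 (20630), mrps-14 (23520) and mrps-22 (29221). The genes mrpl-1 and mrps-24 are head-to-head, and the same region lies in both windows. For 10 members a region was in a replicate list but not in the pooled list: mrpl-10, mrpl-24, mrpl-30, mrpl-41, mrpl-46, mrpl-50, mrpl-51, mrps-26, tin-44 and tomm-70. Of these only mrpl-50 had a region in both replicates, at ranks 25278 and 24736. No list held one for 13: mrpl-13, mrpl-21, mrpl-32, mrpl-42, mrpl-48, mrpl-53, mrps-5, mrps-11, mrps-18.C, mrps-18A, mrps-30, timm-17B.2 and tomm-7. The lists end at a fixed length, so the lack of a region does not show the lack of LIN-13. By chromosome, members with an IDR peak were 5 of 18 on I, 3 of 14 on II, 5 of 26 on III, 5 of 15 on IV and 4 of 11 on V, and none of the 84 genes is on X, which holds 13.7% of protein-coding genes. The share of all protein-coding genes on each chromosome is not given here, so differences between chromosomes cannot be read from these counts.

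Other mitochondrial genes had peaks in each of 4 lists. The shares were 37.5%, 20%, 30.8% and 28.6% in the order below, against 8.15% of all protein-coding genes. The lists are short, and no list's share was tested. Of 16 partners of import and inner membrane organisation, 6 had an IDR peak. They were led by hsp-60, the matrix chaperonin (pooled rank 20, ranks 44 and 11 in replicates 1 and 2), and hsp-6, the matrix Hsp70 that drives import (rank 255; 199 and 502), followed by the cristae organiser immt-1 (rank 303; 163 and 603) and the metaxin mtx-1 (rank 553; 468 and 732). The hsp-60, hsp-6 and mtx-1 summits, 599, 401 and 438 bp upstream, were nearer to Y22D7AL.10, C37H5.5 and dnj-12. Of 15 matched mitochondrial translation factors and synthetases, 3 had a peak: ears-2, a glutamyl-tRNA synthetase gene (rank 37; 93 and 41), and the elongation factor genes tufm-1 (rank 551; 441 and 804) and tufm-2 (rank 1322; 818 and 11388), whose summit was nearer to exoc-7. The ears-2 summit was 19 bp upstream, and its pooled rank was better than that of every mitochondrial ribosome peak. Of 13 genes for the mitochondrial genome and protein quality control, 4 had a peak: the protease gene clpp-1 (rank 292; 486 and 216), the single-stranded DNA binding protein gene mtss-1 (rank 967; 1124 and 1111), the mitochondrial stress response gene ubl-5 (rank 1104; 1495 and 1065) and the protease gene spg-7 (rank 1354; 1253 and 1733). Of 7 genes for mitochondrial dynamics and mitophagy, 2 had one, the Parkin gene pdr-1 (rank 797; 238 and 3162) and the fission gene drp-1 (rank 1366; 1394 and 1938), whose summit was nearer to fem-1.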

How the data were processed

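LIN-13 ChIP-seq in 2 replicates gave ce11 region lists in narrowPeak format: 30000 regions for each replicate, 30000 for both pooled, and an IDR list. Per the file headers, regions were called against a control and the IDR list was made from the other 3. The aligner, caller, versions and IDR threshold were not given in the sources used here. Column 7 of the deposited lists is the authors' signal value. Its scale is not shared by the lists, so values rank or describe regions within 1 list only. The IDR list equals the first 1534 pooled ranks. No read counts are given, so depth is unknown.

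TSSs came from Ensembl release 115 (WBcel235, which is ce11). Coordinates count from 1. All regions lay within the reference chromosomes. Summits within 100 bp were matched between lists. The ce10 lists were not used. Window calls were checked on simulated positions. Python 3.11.15 was used. Members and lists were chosen with earlier results of these data known. Named genes were the 20 best ranked members, all import genes with a peak, 5 members to each side of the threshold, and up to 4 of each list. Every other member is named with its rank or lack of a region. The upstream gene classes, GCAAACA and GCGCAC were chosen after the data were seen. wars-2, mars-2 and cars-2 were unmatched.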

Additional observations from a re-analysis of the deposited data

How the results depend on the processing

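The number of genes with an IDR summit stayed between 15 and 22 under several settings. These included windows of 500 bp upstream to 200 bp downstream or 250 bp upstream to 50 bp downstream. Others were the most upstream TSS alone, each summit given to its nearest coding TSS, and IDR peaks among the first regions of both replicates. Among the 767 strongest IDR peaks the number was 14. Without replicate 1, 21 genes had a summit among the first 1534 regions of replicate 2. Without replicate 2, 19 had one among the first 1534 of replicate 1, and 16 of these 19 had an IDR peak. The median distance to the TSS was 150.5 bp with 500 bp upstream, a window that drops far summits by construction, and 172 to 177 bp without each replicate. The median rank was 640 in replicate 1 and 368 in replicate 2. GAGAGAGA was at 0 summits within 50 bp. Other gaps for a close same-strand gene were added after the data were seen. Members behind such a gene had a peak at 1 of 23 (4.35%) with 200 bp, against 21 of 61 other members (34.4%). With 100 bp it was 1 of 10 (10%), against 28.4% of other members, and with 500 bp 3 of 33 (9.09%), against 37.3%. The share behind a close gene thus moved by over 1.5 times under both gaps. Under 25 of 29 alternatives, numbers of genes or peaks stayed within 1.5 times, or medians moved by less than 1 SD between the replicates' values. These 25 include the gap of 100 bp, which was judged by its count of 1 and not by its share. The replicates' own medians were among these alternatives and also set that SD, so for them it is no independent check. With 1 group and no read counts, neither counting error nor a difference between conditions could be given.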
